A study of Mus musculus with 28 samples.

Results

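The clustered protocadherins are cell-surface proteins of the cadherin superfamily that neurons and some glia use to recognise each other. They were followed here as RNA in mouse brain synaptosomes, the pinched-off nerve terminals and attached postsynaptic membrane that form when brain tissue is homogenised. Members were taken by symbol, as every gene whose name starts with Pcdha, Pcdhac, Pcdhb, Pcdhga, Pcdhgb or Pcdhgc followed by a number. This gave 58 of 25239 genes in the table of the SynSURF preparation and 59 of 24443 in the table of the sucrose gradient preparation. The 58 shared symbols were 14 alpha, 22 beta and 22 gamma members. The additional sucrose symbol was Pcdha7-g, a RefSeq synonym of Gm38667, which the SynSURF table lists under its Gm name.

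The groups were SynSURF sorted synaptosomes (10 libraries), SynSURF crude synaptosomes (10), sucrose gradient sorted synaptosomes (3) and sucrose gradient crude synaptosomes (3), all poly(A) RNA of mouse brain. Per the labels' protocols, each sorted sample was a larger number of particles than a crude one, and sorted particles went into TCEP (a reducing agent) where crude ones went into PBS, so particle number and buffer cannot be told apart from sorting. Another 2 libraries, total RNA of SynSURF sorted synaptosomes, were not analysed here. The labels give no strain, genotype, age or sex, call the cell type primary neurons, and do not tie replicates to animals. P-values therefore describe the spread among these libraries, and part or all of that spread may be technical.

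As background, each beta gene is a single coding exon, while the alpha and gamma genes join their own large first exon to constant exons shared along the cluster. The first exon encodes the extracellular cadherin repeats, the transmembrane segment and the start of the tail, and the constant exons encode the shared cytoplasmic end. A neuron switches on a small random set of first-exon promoters, a choice that depends on CTCF and cohesin, plus C-type members (Pcdhac1, Pcdhac2, Pcdhgc3, Pcdhgc4 and Pcdhgc5) that are used more evenly. The protein isoforms of a cell bind only matching sets on the facing membrane, and this recognition is best known for keeping the neurites of 1 neuron apart and for shaping dendrites and synapses.

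In the GENCODE M21 annotation of GRCm38 the 3 clusters lie one after the other on the plus strand of chromosome 18, alpha from 36930184 to 37187661, beta from 37264938 to 37524479 and gamma from 37661793 to 37841873. There 18 of 22 beta genes have 1 exon. All 14 alpha genes carry the same 3 constant exons, 2860 bases in all, and 17 of 22 gamma genes carry another shared set of 3, 2119 bases. RefSeq further annotates 3 genes that start in the alpha cluster and end in the gamma cluster, Gm37013 (Pcdha4-g), Gm38666 (Pcdha6-g) and Gm38667 (Pcdha7-g). They were summed apart as read-through genes, since reads in the gamma constant exons fit them as well as the gamma members. The build behind each table is uncertain, so the positions were used in no measurement.

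The deposited counts show where reads could be given to 1 member and where they could not. Of the values above 0 in SynSURF crude libraries, 48 of 49 alpha and 70 of 70 gamma values were not whole numbers, against 4 of 183 beta values. In sucrose crude libraries 12 of 13 alpha, 0 of 51 beta and 24 of 24 gamma values were not whole. Pcdha8 and Pcdha10 held exactly equal values in 5 of the 6 SynSURF libraries where both were above 0.

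Beta members were therefore counted almost one by one, and alpha and gamma members by an estimated split. In SynSURF crude libraries the member with the most alpha counts was 1 of 6 different genes, depending on the library, and held 31.8% to 80.9% of the cluster. The leading gamma member was also 1 of 6, at 25.4% to 92.8%. Pcdhga8, for instance, held 1354.94 of the gamma counts in crude replicate 7 and was listed at 0 in crude replicates 2, 3, 5, 6, 8 and 9.

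The sum over a cluster was steadier than its members. Per library total (CPM of the total, with no scaling factor), the alpha sum had a coefficient of variation of 13.2% over the 10 SynSURF crude libraries, while its 12 members with at least 10 crude counts had a median of 212%. For beta the values were 23.7% for the sum and 86.0% for the median of 20 members, and for gamma 52.3% and 207% (22 members). Members of a cluster share reads and are not independent, so the cluster sums carry the comparisons below for alpha and gamma, and single members do so mainly for beta.

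**Figure D1:**
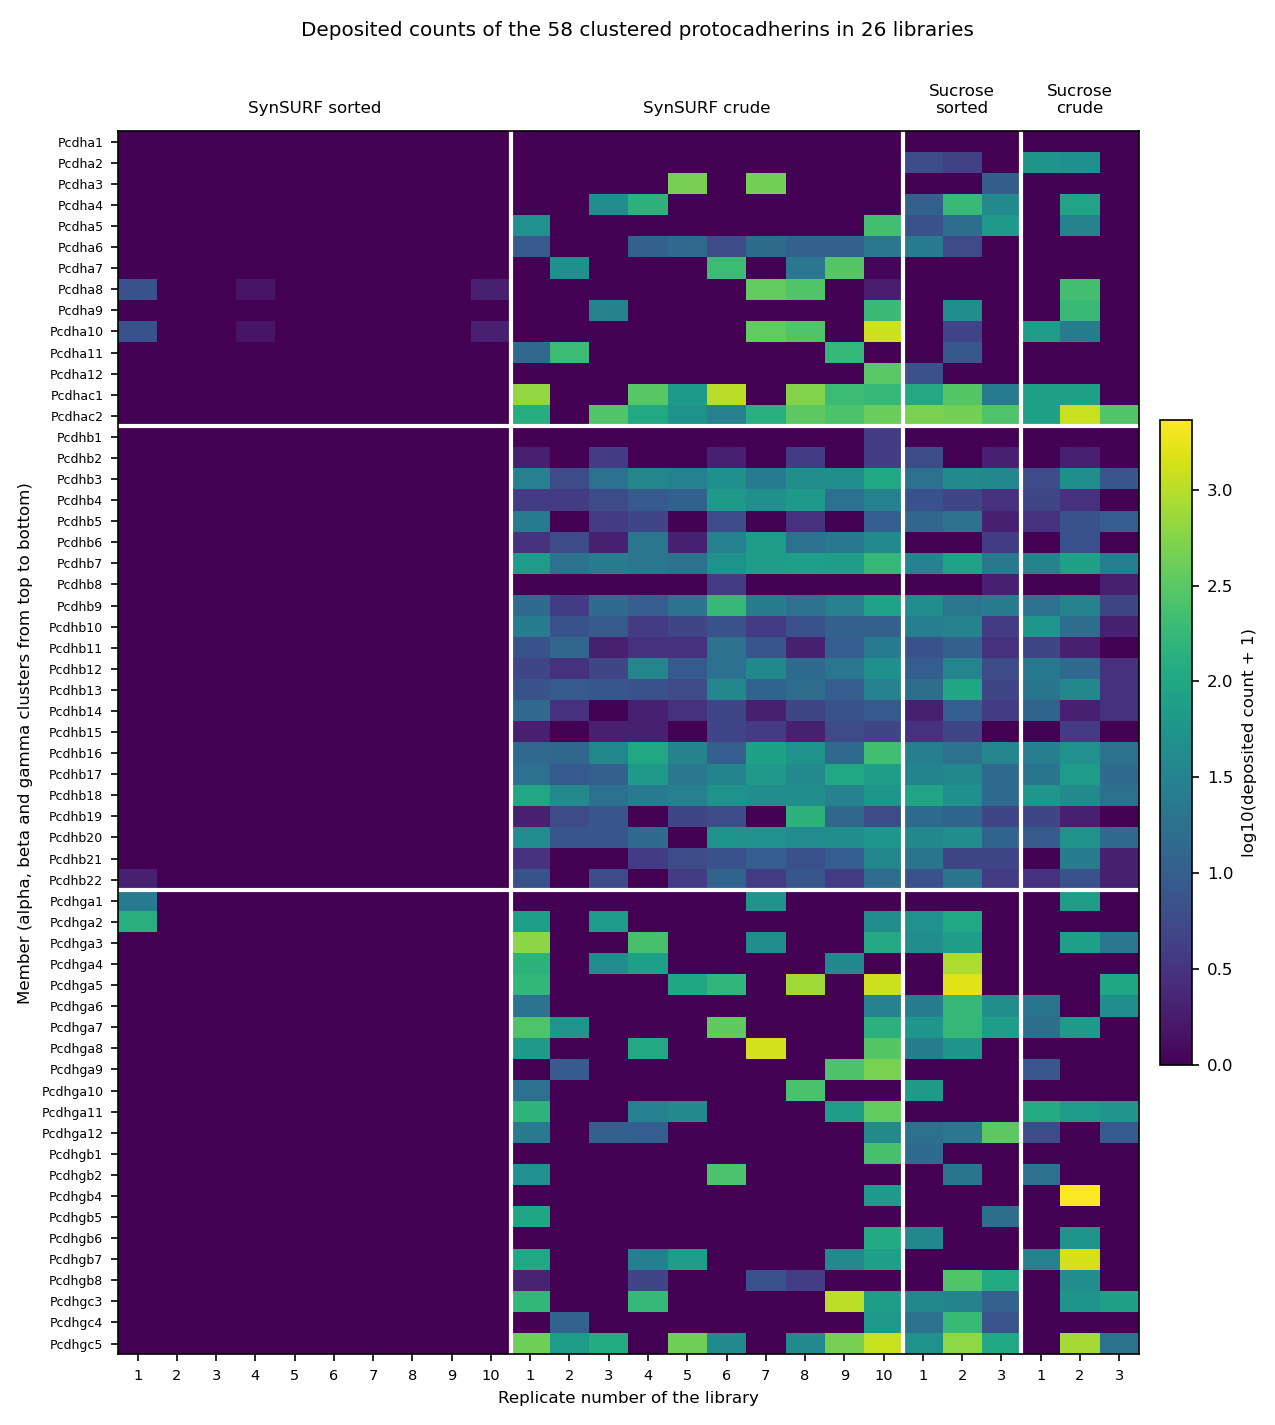
Deposited counts of the 58 members, as log10(count + 1), with 1 row per member (alpha, beta and gamma from top to bottom) and 1 column per library, SynSURF sorted, SynSURF crude, sucrose sorted and sucrose crude from left to right. Most beta members have counts in crude SynSURF and in sucrose columns, alpha and gamma members switch between 0 and high counts, and 7 of the 10 SynSURF sorted columns hold no member.

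In SynSURF, sorted synaptosomes held almost no RNA counted to the 3 clusters, while crude synaptosomes held all 3 in every library. Over the 10 sorted libraries together there were 16 alpha, 1 beta and 151 gamma counts in 3172842 counts in all. At the crude share of the reads, the same depth would hold 753 alpha, 332 beta and 1032 gamma counts.

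Alpha counts were 12, 2 and 2 in sorted replicates 1, 4 and 10 and 0 in the other 7 sorted libraries, against a lowest of 247 and a highest of 2603 in the crude libraries. Before rounding, replicate 4 held 1 alpha count, given in equal parts to Pcdha8 and Pcdha10, and those genes held all sorted alpha counts apart from a value of 0.01 for Pcdha1 in replicate 1. Scaled to the TMM-adjusted library total (scaled CPM), the alpha sum was 4.93 ± 8.33 in sorted and 170 ± 20.9 in crude libraries (SD, n = 10 each), a log2 ratio of -5.11. All 10 sorted libraries lay below the lowest crude library. Pooled over libraries, the crude share of counts was 47.1 times the sorted one, with an exact Poisson 95% interval of 28.99 to 82.4 on the sorted counts, which covers counting error only.

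Beta RNA was down to 1 count in the 10 sorted libraries, a count of Pcdhb22 in replicate 1. The scaled beta level was 0.186 ± 0.587 CPM in sorted and 78.2 ± 15.1 CPM in crude libraries (SD, n = 10 each), which held 132 to 1030 beta counts. The pooled ratio of crude to sorted was 332 (interval 59.6 to 13127), and again all 10 sorted libraries lay below every crude one.

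Gamma members had counts in 1 sorted library only, replicate 1, with 128.71 for Pcdhga2 and 22.29 for Pcdhga1. Pooled over all 10 libraries, the crude share of gamma counts was 6.83 times the sorted one (interval 5.83 to 8.07). The other 9 sorted libraries held 0 gamma counts in 1360081 counts, where the crude share would give 442. Gamma members were thus at least 147-fold lower there on library totals, with 3 counts over the 9 libraries as the limit that a count of 0 allows. That bound leaves out the 1 sorted library with gamma counts. With the read-through genes added, those 9 libraries held 189 counts, where the crude share would give 584. Over all 10 the scaled gamma level was 28.03 ± 88.6 CPM in sorted and 212 ± 121 CPM in crude libraries (SD, n = 10 each). Without replicate 1 the beta counts were likewise 0, at least 47.5-fold lower, and the alpha counts were 4, where the crude share would give 323.

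Depth sets these limits. The sorted libraries held 76520 to 1812761 counts and the crude ones 1035427 to 8897245. In the shallowest sorted library 3 counts amount to 39.2 CPM of the total, still below the lowest crude library for alpha (192), beta (69.8) and gamma (138). In scaled CPM, 3 counts amount to 57.4 in sorted replicate 9. That is below the lowest crude alpha (137) and gamma (97.5) sums but above the lowest crude beta sum (48.8). A beta count of 0 in that library thus does not bound it below every crude one on that scale. With every SynSURF library thinned to 76520 counts, sorted libraries held a median of 0 members with a count (0 to 4) and crude libraries a median of 15 (8 to 21). Of all genes, 2588 to 4117 had a count in these thinned sorted libraries and 6384 to 7653 in the crude ones.

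Fewer particles that carry these RNAs and less of the RNA per particle cannot be told apart. Scaling matters in this preparation, since the median log2 fold change of all tested genes, sorted over crude, was -0.18 with TMM, -0.28 with DESeq2 size factors and -1.28 on library totals. The lower alpha and beta sums stood under each of these scalings.

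Genes of similar crude level give the background for these numbers. Of 5972 genes with a mean crude level from 10 to under 100 CPM of the total, 9.81% had no count in any sorted library. Of the members in that range, 19 of 21 had none. Only Pcdhb7, Pcdhb16, Pcdhb17 and Pcdhb18 among these members are beta genes, and all of them lacked a sorted count. The rest are alpha and gamma members, which share reads and whose missing counts depend on the estimated split. They are thus not independent genes, and their share cannot be set against that of all genes. Of 1485 genes from 100 to under 300 CPM, 16.4% had every sorted library below every crude one, and 5.32% had a pooled crude-to-sorted ratio at or above that of the alpha sum. For the ratio of the beta sum that share was 1.08%, and for the gamma sum 28.1%. With the read-through genes added to gamma, the pooled ratio was 4.01 and the share 41.3%. The mean crude level of that larger sum, 397 CPM, lies above the range of these genes.

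**Figure D2:**
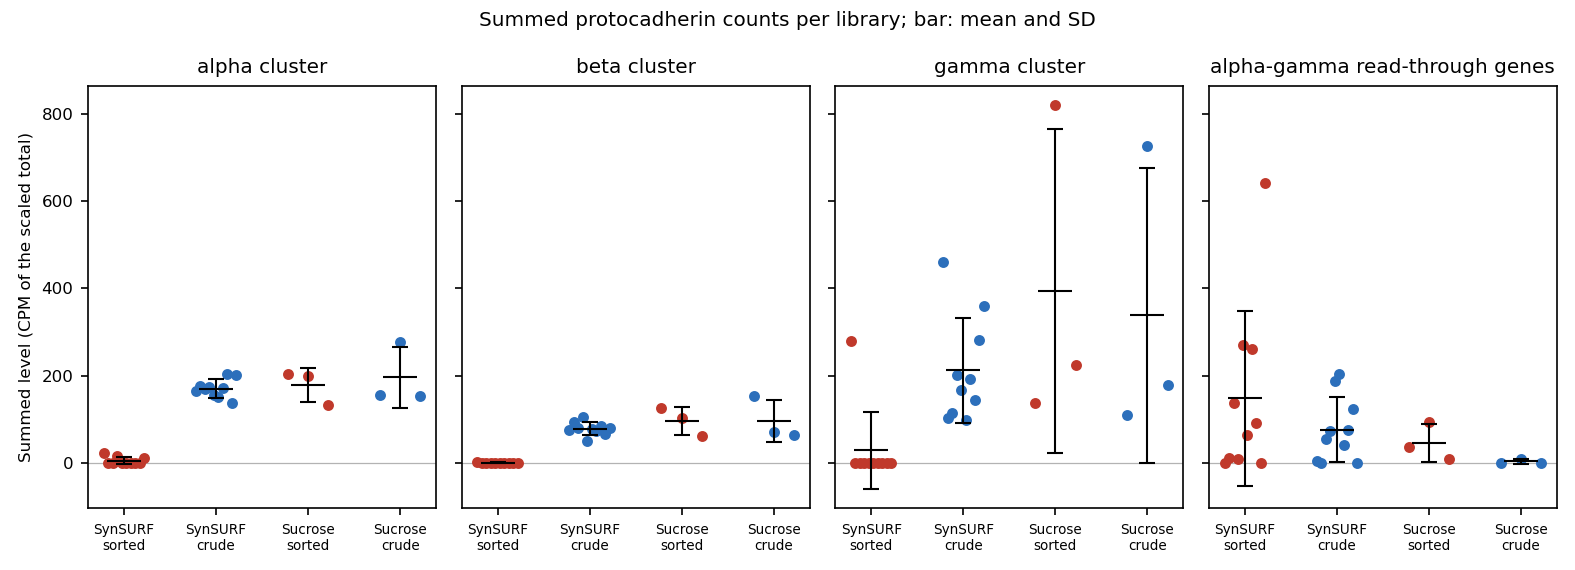
Summed scaled CPM per library (points) for the alpha, beta and gamma clusters and for the 3 alpha-gamma read-through genes, in sorted (red) and crude (blue) libraries of each preparation, with the mean and SD as bars. All 10 SynSURF sorted libraries lie below the crude ones for alpha and beta, 9 of 10 do for gamma, and the groups overlap for the read-through genes and in the sucrose preparation.

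The read-through genes differed among themselves. Gm37013 had 0 sorted counts and 1184 crude counts in SynSURF, at least 29.2-fold lower on library totals. Gm38666 had 0 and 162, at least 4.00-fold lower. Both bounds use 3 counts over the group as the limit and take the estimated split of reads as given. Gm38667, singled out after its values were seen, held all 189 read-through counts in SynSURF sorted libraries, in whole numbers, with 109 of them in replicate 10, 34 in replicate 5 and 0 in replicates 1 and 9. In crude libraries Gm38667 was above 700 in replicates 5, 6 and 9 and listed at 0 in replicates 1, 2, 4 and 10. The groups overlapped for Gm38667, with a log2 fold change of 1.55 ± 1.27 (SE, n = 10 each, edgeR adjusted p = 0.372). Pooled over libraries, the crude share of all read-through counts was 1.75 times the sorted one (95% interval 1.52 to 2.03), and 3 sorted libraries lay above the highest crude one in scaled CPM. The length of Gm38667, read from counts per TPM, was 1.34 times that of Pcdhb7 (median of 5 libraries), close to the 1.36 of Pcdhga5 and the 1.38 of Pcdhgc5. Summed with the gamma members, the read-through genes gave 176 ± 197 scaled CPM in sorted and 288 ± 112 in crude libraries, with 5 of 10 sorted libraries below the lowest crude library and 1 above the highest. Gamma members and Gm38667 end in the same exons, so how their reads were divided cannot be told apart from a difference in gamma RNA.

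For gene-by-gene tests, edgeR's expression filter asked for about 8.34 CPM in at least 10 SynSURF libraries, and 0 of 58 members met it. Members that are near 0 in every sorted library can meet it only by passing in all 10 crude ones. Among the 6598 genes that met it, 22.1% were called lower in sorted libraries at an adjusted p under 0.05 and 7.65% higher.

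Without the filter, 56 members entered the test, 15 were called lower in sorted libraries and none higher, against 21.4% lower and 4.83% higher of all 16869 genes. The 15 were Pcdhac1, Pcdhac2, Pcdhga5, Pcdhgc5 and 11 beta members (Pcdhb3, Pcdhb4, Pcdhb6, Pcdhb7, Pcdhb9, Pcdhb12, Pcdhb13, Pcdhb16, Pcdhb17, Pcdhb18 and Pcdhb20). Without sorted replicate 1, 12 of them were called, and Pcdhb6, Pcdhb13 and Pcdhga5 were not. The share of members called was near that of all genes. A mean crude level of at least 5 CPM of the total was reached by 28 of the 58 members.

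Pcdhac1 and Pcdhgc5, both C-type, had the most pooled SynSURF crude counts of the alpha and the gamma cluster (2948 and 2773). Pcdhac2, best known for the tiling of serotonergic axons, had 0 counts in all 10 sorted libraries and a count in 9 of 10 crude libraries, with a crude median of 26.97 scaled CPM and a highest value of 133 in replicate 3. That is at least 41.6-fold lower on library totals and at least 14.4-fold on scaled totals. Such bounds for single alpha and gamma members take the estimated split of reads as given. Like those of all single genes in SynSURF, they pool the 10 sorted libraries. Replicate 1 holds 1812761 of the 3172842 pooled counts, so the bounds on totals would be lower without it. A listed 0 may leave out reads that were given to another member. Without the filter its adjusted p was 0.00124 (edgeR).

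Pcdhac1 was at 0 in every sorted library and above 0 in 7 crude libraries, up to 126 scaled CPM, so it was at least 72.8-fold lower on totals and at least 25.1-fold on scaled totals (edgeR adjusted p = 0.00638 without the filter). Pcdhgc5, a gamma member that binds GABA-A receptors, was also at 0 in every sorted library and above 0 in 8 crude libraries. Its crude median was 51.8 and its highest value 111 scaled CPM. It was at least 68.5-fold lower on totals and 23.7-fold on scaled totals (edgeR adjusted p = 0.0041 without the filter). The bounds of Pcdhac1 and Pcdhgc5 on totals exceed the pooled ratios of their cluster sums, 47.1 for alpha and 6.83 for gamma. The sorted counts of both clusters were listed under other members.

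Pcdhgc3, which promotes dendrite branching of cortical neurons, had 0 sorted counts and 1481 crude counts, in 4 crude libraries only, with 155 scaled CPM in replicate 9. This difference did not pass without the filter (edgeR adjusted p = 0.0614). Pcdhgc4, the member that gamma-dependent neuron survival rests on, had 0 counts in sorted libraries and 73 in crude libraries, all in 2 of them (edgeR adjusted p = 0.384).

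Beta members gave the clearest view of single genes, because their reads are their own. Per length, as the authors' TPM, Pcdhb7 was the highest in SynSURF crude libraries (8.47 ± 3.15, SD, n = 10), followed by Pcdhb17 (6.98 ± 4.83), Pcdhb16 (5.97 ± 5.48), Pcdhb9 (5.61 ± 5.45), Pcdhb18 (5.59 ± 4.47) and Pcdhb3 (5.04 ± 1.89). Neighbours in this order differed by less than their SD. At the low end were Pcdhb1 and Pcdhb8, at 0.034 and 0.046 TPM.

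Of the 22 beta members, 21 had no count in any SynSURF sorted library and 12 had one in every crude library. Pcdhb7 was 0 in all 10 sorted libraries and ranged from 4.42 to 13.99 scaled CPM over the crude libraries, with a median of 10.7 (598 crude counts, at least 14.8-fold lower on totals and 5.1-fold on scaled totals, edgeR adjusted p = 0.00037 without the filter). Pcdhb3 was also 0 throughout the sorted group and ranged from 3.14 to 10.0 scaled CPM in crude libraries, with a median of 6.4 (374 crude counts, at least 9.23-fold lower on totals and 3.19-fold on scaled totals, edgeR adjusted p = 0.00106 without the filter). The listed values of the groups did not overlap for either gene, but a 0 in a single sorted library does not bound it below the crude ones. The limit of 3 counts amounts to 5.57 scaled CPM in sorted replicate 1, above the lowest crude value of both genes. In the other sorted libraries it amounts to 17.6 to 57.4, above their highest crude values. The fold bounds given for these genes pool the sorted libraries.

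The order of the beta genes was alike in the preparations. Pcdhb7 was first in SynSURF crude, sucrose sorted (6.73 ± 2.70 TPM, SD, n = 3) and sucrose crude libraries (8.27 ± 1.16 TPM, n = 3). Spearman's rho across the 22 members was 0.822 between SynSURF crude and sucrose sorted means and 0.809 between SynSURF crude and sucrose crude means, given as a description, since the points share gene length and libraries. The number of a gene along the cluster went weakly with its level (rho = 0.179 in SynSURF crude and 0.316 in sucrose crude).

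**Figure D3:**
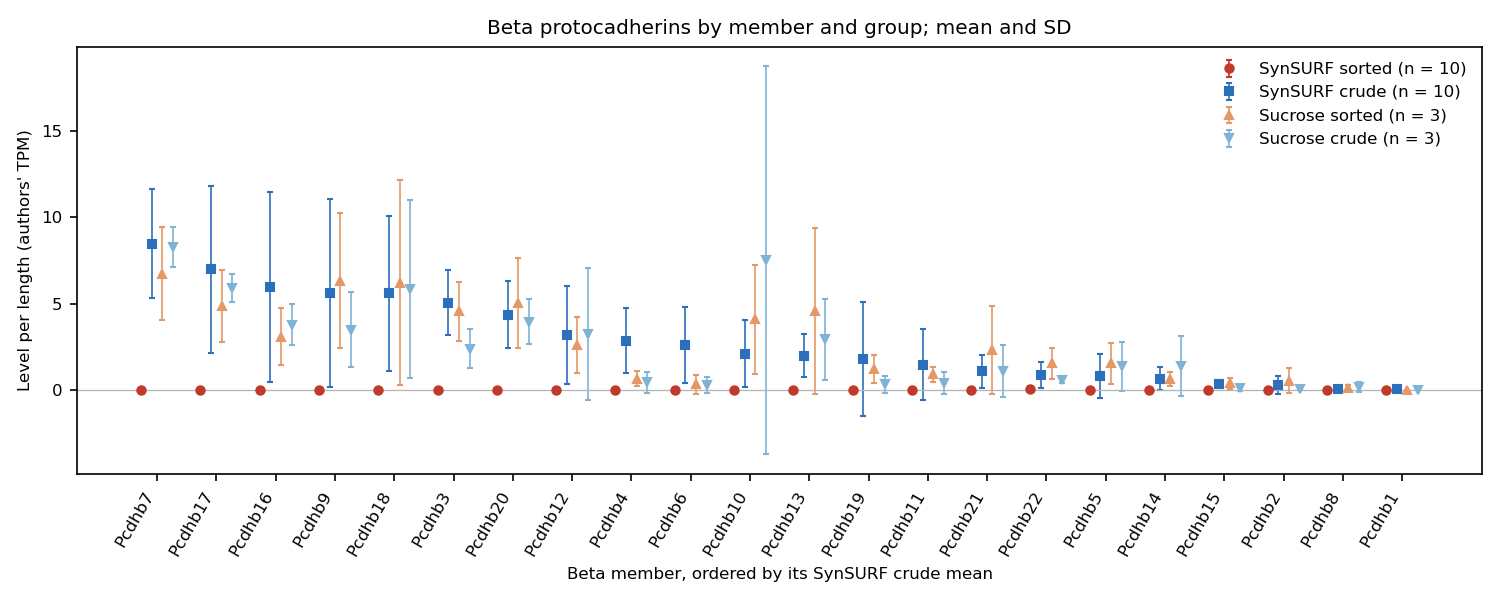
Mean and SD of the authors' TPM for each of the 22 beta members, ordered by the SynSURF crude mean, in SynSURF sorted and crude (n = 10 each) and sucrose sorted and crude libraries (n = 3 each). Pcdhb7 leads in 3 of the groups, SynSURF sorted means are 0 for all members but Pcdhb22 (0.048 TPM), and sucrose sorted and crude bars overlap for most members.

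In the sucrose gradient preparation, sorted synaptosomes kept all 3 clusters at about the crude level. The alpha sum was 204, 199 and 133 scaled CPM in sorted libraries against 155, 278 and 154 in crude libraries. The beta sum was 125, 103 and 61.2 scaled CPM in sorted libraries against 152, 71.2 and 64.3 in crude libraries. The groups overlapped for both clusters, and the log2 ratios of the means were -0.13 for alpha and 0.01 for beta.

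The gamma sum followed the replicate number more than the sort, at 137, 821 and 223 scaled CPM in sorted libraries and 110, 726 and 178 in crude libraries. In each pair the sorted library was the higher, and replicate 2 stood far above replicates 1 and 3 in both groups. Replicate 2 was also the deepest of its group, with 5196060 counts in the sorted and 6793386 in the crude library. The log2 ratio of the gamma means was 0.22, and with 3 against 3 libraries no exact permutation test could go below p = 0.1.

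The read-through genes were at 35.9, 93.0 and 7.81 scaled CPM in sorted libraries against 0, 8.66 and 0 in crude libraries, so the groups overlapped at the lowest sorted value, and in each of the 3 pairs the sorted library was the higher. Pcdha7-g itself was at 35.2 in sorted replicate 2, at 8.66 in crude replicate 2 and at 0 in the other 4 libraries. Gm37013 held counts in sorted replicates 1 and 2 and Gm38666 in sorted replicates 2 and 3, and both were listed at 0 in every sucrose crude library.

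Of 10589 genes tested in this preparation, edgeR called none (0% higher and 0% lower), so none of the 21 members that passed the filter was called either. DESeq2 called 1 gene, the member Pcdhga11. At an unadjusted edgeR p under 0.05 there were 324 genes, 3.06%, among them 4 of the 21 members (Pcdhga7, Pcdhga11, Pcdhga12 and Pcdhgb8). The filter admits a gene present in 1 group alone, so that count is no support for a change. The 21 were 3 alpha, 10 beta and 8 gamma members, with log2 fold changes of sorted over crude from -9.93 to 4.24 and a median of 0.35, beside -0.04 for all genes tested. Their standard errors had a median of 1.01, against 0.57 over all genes tested, so single members were measured less well than the typical gene.

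The 10 tested beta members stayed between -0.99 and 0.80. Pcdhb7 was at 9.46, 16.6 and 6.83 scaled CPM in sorted and 16.4, 12.04 and 14.3 in crude libraries (log2 fold change -0.36 ± 0.58, SE). Pcdhb3 was at 5.05, 7.83 and 11.1 in sorted and 2.65, 6.75 and 3.85 in crude libraries (0.80 ± 0.69). Pcdhb17 was at 10.1, 6.85 and 4.56 in sorted and 10.1, 10.6 and 7.69 in crude libraries (-0.40 ± 0.63). For each of these genes the groups overlapped.

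Pcdhb10 had the lowest beta estimate, -0.99 ± 1.15. It was at 8.51, 6.07 and 0.976 scaled CPM in sorted and 29.2, 2.2 and 0.549 in crude libraries, and without crude replicate 1 the estimate was 1.75. Pcdhb16 (-0.42 ± 0.67), Pcdhb18 (-0.05 ± 0.82), Pcdhb20 (0.24 ± 0.68), Pcdhb5 (0.23 ± 1.01), Pcdhb13 (0.59 ± 0.97) and Pcdhb9 (0.70 ± 0.76) had estimates within 1 SE of 0. All 10 beta members had an edgeR adjusted p of 0.999.

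Among C-type members, Pcdhac2 had the highest alpha count in all 6 sucrose libraries, by 83.31 against 82.61 for Pcdhac1 in crude replicate 1. It was at 154, 88.1 and 88.8 scaled CPM in sorted and 44.0, 176 and 154 in crude libraries (log2 fold change -0.18 ± 0.52, SE, edgeR adjusted p = 0.999). Pcdhac1 was at 33.7, 58.9 and 7.81 in sorted and 44.0, 11.7 and 0 in crude libraries (0.86 ± 1.07). Pcdhgc5 was at 16.4, 119 and 32.2 in sorted and 0, 118 and 10.4 in crude libraries (0.35 ± 1.19), with replicate 2 high in both groups. Pcdhgc3 was at 11.4, 6.07 and 3.25 in sorted and 0, 7.78 and 45.1 in crude libraries (-1.33 ± 1.13). The groups overlapped for all 4.

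Pcdhgc4 did not pass the filter. It was at 5.36, 37.2 and 1.95 scaled CPM in sorted libraries and had 0 counts in every crude library. The groups did not overlap, on 213 sorted counts of which 190 were in replicate 2.

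Other gamma members varied widely between libraries of 1 group, and for Pcdhga11 and Pcdhga7 the groups did not overlap. Pcdhga11 was listed at 0 in the 3 sorted libraries and held 114.9, 69.09 and 55.17 counts in the crude ones. This is at least 86.3-fold lower, with 3 counts over the group as the limit and the estimated split of reads taken as given. Its edgeR adjusted p was 0.246, and 0.0354 with the replicate number as a block, which pairs the sucrose libraries. It was the 1 gene called lower among the 10589 tested in that fit (0.00944%).

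Pcdhga7 was at 17.97, 33.3 and 25.1 scaled CPM in sorted and 8.49, 9.4 and 0 in crude libraries (log2 fold change 2.04 ± 0.87, SE, edgeR adjusted p = 0.999). Pcdhga12 (106 scaled CPM in sorted replicate 3, at most 5.05 in the other 5 libraries) and Pcdhgb8 (0, 55.4 and 35.5 in sorted, 0, 6.61 and 0 in crude libraries) also had estimates above 0, neither called (edgeR adjusted p = 0.999). Pcdhga3 had 14.2, 14.9 and 0 scaled CPM in sorted and 0, 11.5 and 10.99 in crude libraries. Pcdhga6 had 7.88, 34.7 and 13.99 in sorted and 10.1, 0 and 25.8 in crude libraries. The groups overlapped for both.

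The largest gamma values sat in single libraries. Pcdhga5 held 1567.24 of the 4191.36 gamma counts in sorted replicate 2, and Pcdhgb4 held 2298.57 and Pcdhgb7 1400.92 of the 4944.09 in crude replicate 2. Pcdhgb4 was listed at 0 in the other 5 sucrose libraries, and Pcdhga5 at 0 in 4 of them. While the leading member changed, the gamma sum of the pair stayed close, at 821 scaled CPM in the sorted and 726 in the crude library. The same held for alpha members beyond the C-type: Pcdha4 was at 3.15, 35.6 and 12.7 in sorted and 0, 13.4 and 0 in crude libraries (1.78 ± 1.25), Pcdha8 was at 33.6 in crude replicate 2 alone, and Pcdha9 was at 9.2 in sorted and 27.6 in crude replicate 2 and 0 elsewhere. Pcdha10 was at 0.783 in sorted replicate 2, and at 38.7 and 3.67 in crude replicates 1 and 2.

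**Figure D4:**
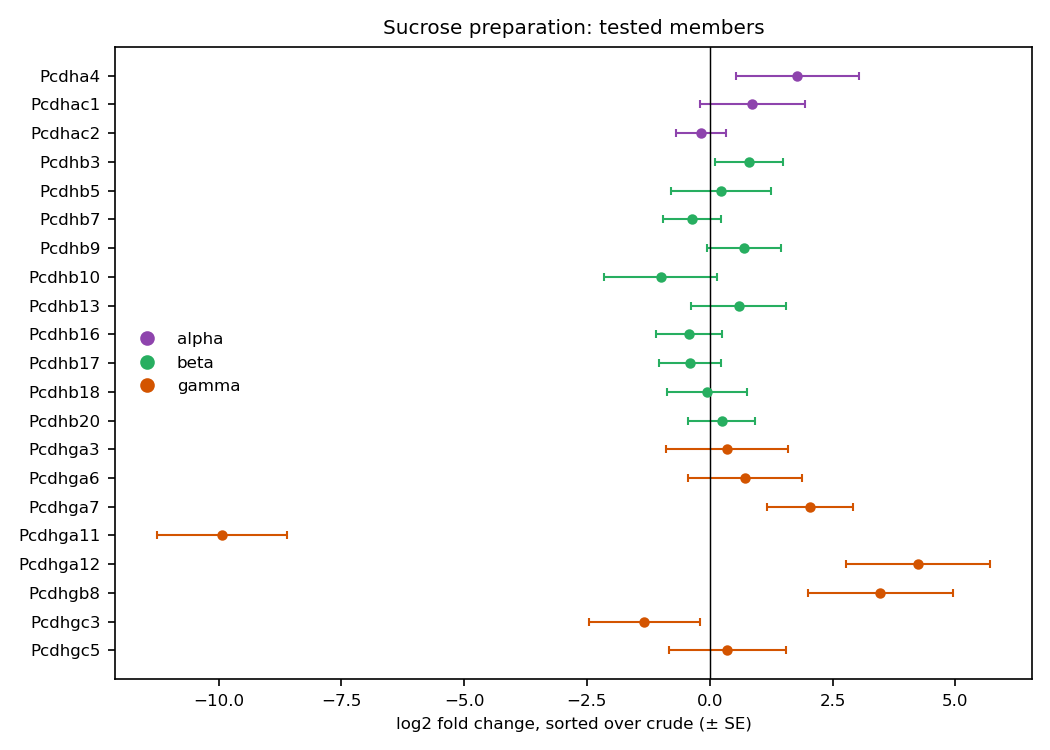
Log2 fold change of sorted over crude sucrose libraries with its SE (edgeR, 3 against 3) for the 21 members that passed the filter, coloured by cluster. The 10 beta members lie between -0.99 and 0.80, and the gamma members spread from -9.93 (Pcdhga11) to 4.24 (Pcdhga12). The Pcdhga11 point is no bound, since its sorted libraries were all at 0.

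With sucrose libraries thinned to the same total, the sorted library of each pair had more members with a count than the crude one, though the groups overlapped. At 1844679 counts per library, 38, 39 and 30 of the 59 members had a count in sorted and 27, 32 and 23 in crude libraries. Beta members with a count were 17 to 19 in sorted and 13 to 16 in crude libraries. Of all genes, 12950 to 13406 had a count in the thinned sorted and 12936 to 13073 in the thinned crude libraries, higher in sorted libraries in pairs 1 and 3. Thinning of this preparation and of SynSURF went to different depths, so their levels cannot be set side by side.

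**Figure D5:**
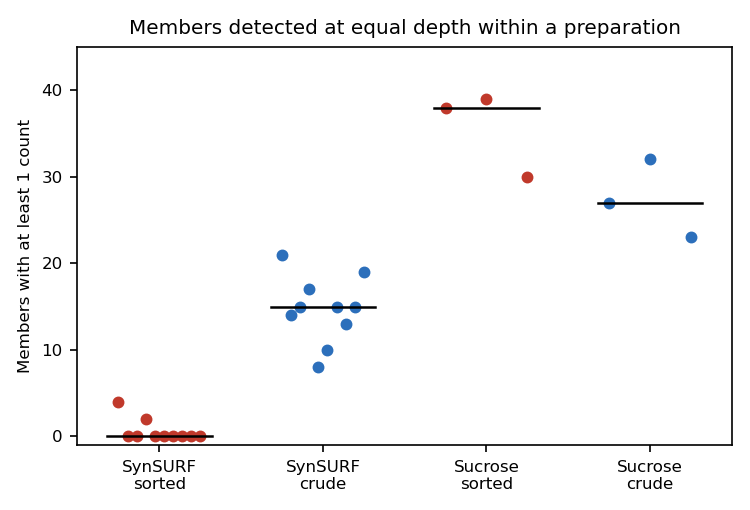
Number of members with at least 1 count in each library (points) and the median of the group (bar), after thinning to the shallowest total of each preparation, for sorted (red) and crude (blue) libraries. SynSURF sorted libraries hold 0 to 4 members and crude ones 8 to 21, and sucrose sorted libraries hold 30 to 39 and crude ones 23 to 32.

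For part of the members the sorted-minus-crude effect was called different between the preparations, at a share not far above that of all genes. In 1 edgeR fit of all 26 libraries, 36 members were tested and 9 had a lower effect in SynSURF than in sucrose at an adjusted p under 0.05, against 17.3% of all 10713 genes. They were Pcdhac2 (adjusted p = 0.0164), Pcdhb3 (0.00173), Pcdhb7 (0.00285), Pcdhb9 (0.0173), Pcdhb16 (0.0305), Pcdhb17 (0.0118), Pcdhb18 (0.0157), Pcdhb20 (0.0292) and Pcdhga4 (0.0349). Each of these 9 was at 0 in all 10 SynSURF sorted libraries, so the fitted fold of that arm is no bound and is not given. They passed the filter through the other groups alone, so their number is no support for a trait of the members.

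Pcdhga1 was called with a higher effect (edgeR adjusted p = 0.0349, against 0.299% of all genes). It rests on SynSURF sorted replicate 1. Without that library 8 of 37 tested members were called lower and 0 higher, beside 1934 lower and 32 higher of 10728 genes. Pcdhb16 was not among the 8. Pcdhga4 had sucrose counts in sorted replicate 2 only. Pcdhga1 and Pcdhga4 are named here because of their values. The preparation cannot be told apart from its table and its sequencing.

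Other C-type members missed the threshold in this test, with an edgeR adjusted p of 0.0525 for Pcdhac1, 0.0598 for Pcdhgc5, 0.0507 for Pcdhgc4 and 0.348 for Pcdhgc3. With the sucrose pairs alone as a block, 1714 of 10713 genes were called lower in SynSURF and 14 higher. Among the 36 tested members 11 were called, all lower. They included 8 of the 10 above, while Pcdhga4 and Pcdhga1 were not called, and Pcdhac1, Pcdhb4 and Pcdhgc5 were. For 4 of the 36 tested members the fit gave no usable standard error.

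Other cell-surface adhesion genes give the context. Of 11 non-clustered protocadherins, single genes elsewhere in the genome that mediate adhesion in developing circuits, 9 were tested in SynSURF. Lower calls numbered 6 and higher ones 0, against 22.1% lower and 7.65% higher of all 6598 genes tested. The median log2 fold change was -3.34, beside -0.18 for all genes tested. Pcdh10 was at 14.3 ± 28.4 scaled CPM in sorted and 165 ± 57.9 in crude libraries (-3.34 ± 0.81, SE, n = 10 each, edgeR adjusted p = 0.00264), and Pcdh17 at 4.53 ± 7.91 in sorted and 48.8 ± 15.0 in crude libraries (-3.15 ± 0.69, adjusted p = 0.000936). Pcdh19 had 0 counts in sorted and 2661 in crude libraries, at least 65.7-fold lower on library totals. Of the 6 called, Pcdh15, Pcdh19 and Pcdh20 had no sorted count, so they passed the filter through the crude libraries alone and their fitted folds are no bounds, which the median includes. In sucrose libraries 0 of 10 tested were called and their median was -0.28.

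Of 19 classical cadherins and catenins, 12 were tested in SynSURF, with a median of -1.44. Of these, 5 were called lower and 0 higher (22.1% and 7.65% of all genes tested). Cdh4 and Cdh8, among the 5, had no sorted count and the same limit applies. Cdh2, N-cadherin, was at 8.18 ± 17.5 scaled CPM in sorted and 47.5 ± 20.2 in crude libraries (-2.59 ± 0.80, edgeR adjusted p = 0.0161). Cdh6 held its 38 sorted counts in 1 library and was also lower (-2.82 ± 0.82, adjusted p = 0.0112), as was Cdh12 (-2.15 ± 0.76, adjusted p = 0.0334). The cytoplasmic partner beta-catenin, Ctnnb1, had a count in every sorted library, at 473 ± 324 scaled CPM in sorted and 376 ± 87.3 in crude libraries (0.33 ± 0.48, adjusted p = 0.631), and its estimate was -0.77 on library totals.

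Among 12 genes of promoter choice and chromatin, 10 were tested in SynSURF, with a median of 0.53. Of these, 3 were called higher and 2 lower in sorted libraries (7.65% and 22.1% of all genes tested). The insulator protein gene Ctcf was at 240 ± 186 scaled CPM in sorted and 78.3 ± 28.9 in crude libraries (1.62 ± 0.57, edgeR adjusted p = 0.0332, and 0.345 on library totals). The cohesin genes Stag2 and Nipbl were called higher on counts in 3 and 4 sorted libraries (adjusted p = 0.0477 and 0.0382), and without sorted replicates 1 and 4 their estimates were -0.16 and -1.201. Smchd1, a chromatin silencer of the clusters, was not called (0.87 ± 0.83, adjusted p = 0.449). Leaving out 1 library at a time ended the call for Ctcf in 8 of 20 cases, with an adjusted p of 0.0204 to 0.0704.

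None of the 12 tested of 13 signalling and actin partners was called, with a median of 0.01. Of all genes tested, 22.1% were called lower and 7.65% higher. Ptk2, the focal adhesion kinase that gamma protocadherins inhibit, was at 262 ± 308 scaled CPM in sorted and 95.7 ± 23.1 in crude libraries (1.46 ± 0.82, edgeR adjusted p = 0.183). Wasf1, a subunit of the WAVE actin complex that protocadherin tails recruit, was at 18.6 ± 18.6 in sorted and 40.8 ± 9.86 in crude libraries (-1.26 ± 0.58, adjusted p = 0.105, and 0.00349 on library totals).

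Of 9 genes of cleavage and endosomal traffic, 5 were tested, with 2 higher and 1 lower (7.65% and 22.1% of all genes tested). The gamma-secretase subunit gene Ncstn had 3 sorted counts (-3.98 ± 0.71, adjusted p = 0.000101). Vps4b, of the endosomal sorting machinery, was at 185 ± 288 in sorted and 30.4 ± 11.6 in crude libraries (2.59 ± 0.96, edgeR adjusted p = 0.0425, and 0.134 on library totals). With 1 library left out at a time the Vps4b call ended in 13 of 20 cases, with an edgeR adjusted p of 0.0241 to 0.0893. Aph1a was called higher on counts in 2 sorted libraries (adjusted p = 0.0028), and without sorted replicates 1 and 4 its estimate was -7.97. In sucrose libraries none of the tested genes of these 5 lists was called.

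Markers of cell types moved with the SynSURF sort as well, and their part in the results above was not tested. Beside the marker calls below, 22.1% of all genes tested in SynSURF were called lower and 7.65% higher. Summed over 10 genes, oligodendrocyte markers were at 19335 to 99448 scaled CPM in sorted and 3148 to 6732 in crude libraries (3 higher and 1 lower of 9 tested). On library totals these groups overlapped, at 7813 to 68140.5 CPM in sorted and 3654 to 10295 in crude libraries. Neuron markers were at 1689.9 to 13337 in sorted and 4162 to 7175 in crude libraries (2 higher and 1 lower of 8, with Syp at 0 in sorted libraries). Astrocyte markers were at 4284 to 15878 in sorted and 8360.2 to 19002 in crude libraries (1 higher and 5 lower of 10). On library totals the astrocyte groups did not overlap, at 2442 to 11070 CPM in sorted and 12470 to 22482 in crude libraries. Microglia markers were at 25.3 to 656 in sorted and 439.8 to 823 in crude libraries (0 higher and 4 lower of 6, with Cx3cr1 and Trem2 at 0 in sorted libraries). Endothelium and pericyte markers were at 0 to 10.53 in sorted and 23.4 to 61.0 in crude libraries, with 8 of 9 at 0 in sorted libraries. Nuclear RNA was at 11.9 to 586 in sorted and 38.3 to 110 in crude libraries, with 0 of 3 tested genes called. No marker was called in sucrose libraries, though the summed astrocyte markers did not overlap there, at 23228 to 30104 scaled CPM in sorted and 19977 to 22992 in crude libraries. On library totals they overlapped, at 22203 to 29585 CPM in sorted and 19019 to 23052 in crude libraries.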

How the data were processed

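Poly(A) libraries of sorted and crude mouse brain synaptosomes were compared in 2 preparations. The authors deposited estimated counts (called an expected count in 1 header) and TPM per gene symbol, in 1 table per preparation, per the file headers. Among tools the submitters' processing notes list fastp and HISAT2, and among builds GRCm38 and GRCm39, without roles. No source used here gives the counting tool, the annotation or the use of strand. In these files 18 further columns with values per sample stayed unused.

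Values that were not whole, 7278 in SynSURF and 4660 in sucrose, were rounded. Each preparation was tested on its whole table with edgeR 4.0.16 (R 4.3.3), by quasi-likelihood with TMM factors and filterByExpr, with only the group in the model and Benjamini-Hochberg adjustment over all genes tested at 0.05. The difference of effects was a contrast in 1 fit over 23466 shared symbols. DESeq2 1.42.0 served as an alternative. Log2 fold changes are sorted over crude, with SE derived from the F statistic. Cluster sums and member detection have no test. A count of 0 was bounded by 3 counts. Levels per length are the authors' TPM. Cluster spans and exons came from GENCODE M21. The fits were tested on simulated data.

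Members, lists and tests were chosen with earlier results of these data known. Named were 29 members that passed a filter, are C-type or led a cluster in crude libraries, plus fixed list genes; others are named for their values where the text says so or as examples of 1 library. The sucrose replicate numbers were taken as pairs from the data and not from the labels. Same-numbered libraries deviated together in all 3 pairs (r = 0.323 to 0.473 across genes). The main fits leave this pairing out. With the replicate block 939 of 10589 sucrose genes had an unadjusted edgeR p under 0.05, against 324 without it. Depth was 1844679 to 6793386 counts per sucrose library and 76520 to 8897245 per SynSURF library. Sequences of the members are not shown here.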

Additional observations from a re-analysis of the deposited data

Results flagged for a closer look

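Over 37 sets of 10 SynSURF libraries (cluster sums and named members), a single library stood far from the other 9 in 11. The cutoff is made for independent, normally distributed values. Some of these sets hold mostly 0 and members of a cluster share reads, so the rate expected by chance is not known. Sorted replicate 1 was at 280 scaled CPM for the gamma sum and at 1.86 for the beta sum, and the other sorted libraries were at 0. In crude libraries replicate 10 was high for Pcdha10 (100.4 scaled CPM, others at most 46.0) and Pcdhgb4 (4.97, others 0), and replicate 4 for Pcdha4 (45.4, others at most 20.6) and Pcdhb16 (31.5, others at most 16.9). Pcdhac2 was high in replicate 3 (133, others at most 44.7), Pcdhga8 in replicate 7 (177, others at most 32.1) and Pcdhgc3 in replicate 9 (155, others at most 53.3). Among whole-read beta genes, Pcdhb9 was high in crude replicate 6 (21.7 scaled CPM, others at most 6.92) and Pcdhb5 in crude replicate 1 (4.66, others at most 1.44).

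A difference of the sorted-minus-crude effect between the preparations was called for 8 named members, all lower in SynSURF. In that fit 36 members were tested, and 17.3% of all 10713 genes were called lower. The edgeR adjusted p was 0.00173 for Pcdhb3, 0.00285 for Pcdhb7, 0.0118 for Pcdhb17 and 0.0157 for Pcdhb18. It was 0.0164 for Pcdhac2, 0.0173 for Pcdhb9, 0.0292 for Pcdhb20 and 0.0305 for Pcdhb16.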

How the results depend on the processing

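In SynSURF 0 members were called after the filter. With no filter 15 of 56 tested members were called, all lower, beside 3603 of 16869 genes called lower. With a mean of at least 5 CPM the number was 8 of 22, all lower, beside 2496 of 8938 genes. Without sorted replicates 1 and 4 (added after seeing the data) it was 2 of 2, beside 2348 of 7433 genes lower. When 1 library was left out it was 0 to 1, with 1 in the fits without 1 of sorted replicates 2 to 10 (in the one examined, Pcdhb7). With no filter and without sorted replicate 1 it was 12 of 56, beside 3369 of 16836 genes lower. Without replicates 1 and 4 it was 10 of 56, beside 3347 of 16815 genes. In sucrose the count was 0, and 1 with the DESeq2 Wald test, with no filter and with the replicate block (Pcdhga11 each time), and 0 to 1 with 1 library left out, where the 1 was without crude replicate 2. In the difference it was 10 of 36 tested, beside 1852 of 10713 genes called lower and 32 higher. It was 17 of 36 on library totals (3012 genes lower and 21 higher) and 17 of 36 with the replicate block (2708 lower and 10 higher). With 1 sucrose library left out it was 6 to 10. The 6 were without sorted replicate 1, of 42 members tested, beside 1356 of 11235 genes lower. SynSURF libraries are not known to be paired by number: same-numbered ones had r = 0.0565 to 0.186, and 8 of 10 correlated best with their own number, a hint from the data and not from the design. With that replicate block no member passed the filter, so the count of 0 says nothing of it, and the read-through gene Gm38667 was called higher in sorted libraries (log2 fold change 2.85 ± 1.21, SE, edgeR adjusted p = 0.0479).

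Mean sums moved by more than 1 SD on plain library totals for SynSURF crude alpha (235 CPM), beta (109) and all members (633), and without C-type members for SynSURF crude alpha (88.9) and all members (306) and for sucrose alpha (34.6 in sorted and 52.4 in crude libraries). The SynSURF sorted gamma mean was 176 with read-through genes added. Leaving out 1 library gave means of 3.00 to 36.8 scaled CPM in SynSURF sorted libraries for all members and 0 to 31.1 for gamma, the lower end without replicate 1. The median number of members detected in SynSURF crude libraries was 8.5 at a minimum of 3 counts and 29 at the deposited depth.

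With 1 library left out, 10 sucrose log2 estimates changed sign, none of them called. The ranges were -0.58 to 0.16 for Pcdhac2, -0.25 to 1.37 for Pcdhb5, -1.55 to 1.75 for Pcdhb10, -0.85 to 1.28 for Pcdhb13, -1.07 to 1.02 for Pcdhb18, -0.092 to 0.60 for Pcdhb20, -0.20 to 0.95 for Pcdhga3, -0.073 to 2.05 for Pcdhga6, -1.91 to 0.70 for Pcdhgc3 and -0.87 to 3.43 for Pcdhgc5. In the difference, leaving out a sucrose library took the adjusted p to at most 0.0681 for Pcdhb16, 0.0541 for Pcdhb18 and 0.0647 for Pcdhb20 (edgeR).

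Low counts limit the SynSURF sorted libraries: 46 of the 51 members with crude counts only had enough of them for any bound on library totals, and 34 on scaled totals.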
